A study of Homo sapiens with 2 samples.

Results

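The spindle assembly checkpoint and the chromosomal passenger complex were examined through 10 genes, AURKB, INCENP, CDCA8, BIRC5, BUB1, BUB1B, BUB3, MAD2L1, MAD2L2 and TTK, taken by name from 18486 genes named in the peak annotation of the series. Chromatin had been profiled by CUT&Tag, in which an antibody on chromatin brings a transposase that cuts and tags the DNA nearby, in PLC8024, a human liver cancer cell line. There was 1 library of cells treated with a drug (10 nM, 6 hours) and 1 library of control cells. Neither the identity of the drug nor the antibody of these libraries is given in the labels, and the title of the series ties the drug to KIF11, a spindle motor. Peaks of every annotation class that carried a member's name were taken, which gave 12 of 29283 peaks in the drug library and 25 of 49854 in the control library.

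These genes guard chromosome segregation. Kinetochores that lack a microtubule recruit TTK, BUB1, BUB1B, BUB3 and MAD2L1, and the complexes assembled there hold back the anaphase-promoting complex until every chromosome is attached. Aurora B kinase (AURKB) with its partners INCENP, survivin (BIRC5) and borealin (CDCA8) sits at the inner centromere, releases faulty attachments and later moves to the central spindle. Cells without working KIF11 form monopolar spindles and are held in mitosis by this checkpoint. Many genes of the group are switched on late in the cell cycle through promoter elements bound by the DREAM and MuvB complexes.

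All 10 start sites lay under a peak in control cells, and 8 of them lay under a peak that was also met by a drug peak. BIRC5 and MAD2L2 had a peak at their start in control cells alone. Counted by the authors' gene names and promoter class, 9 members had a control promoter peak and for 7 of those a drug peak lay at the same place, with an overlap of 1 bp or more, beside 77.7% of all 9106 control promoter genes (95% interval 76.8 to 78.6). The tenth, CDCA8, had its start under a peak that bears a neighbour's name. In the other direction 6 members had a drug promoter peak by name, and all 6 met a control peak, beside 97.9% of 7900 drug promoter genes. With 1 library per group no difference could be set against replicate spread. The depth of both libraries is unknown, so for a peak found in control alone a shallower drug library, fewer cells with the signal and less signal per cell cannot be told apart.

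A peak's score is the authors' own. By the usual MACS2 rule it is the −log10 q-value multiplied by 10, and it starts at 13 in both lists. With depth unknown, scores of the 2 libraries are set side by side without a fold, and each is read by its place in its own list. Peak distances are given from the start site of the authors' annotation of the control peak, and for CDCA8 from the RefSeq start. For AURKB this is 8210249, inside the RefSeq gene, whose first base is 8210575 on the minus strand. Motif positions are given from the start of the RefSeq promoter entry. For AURKB that start is also 8210249, so the bases upstream of 8210575 were not searched. For BUB1B it is 40161069, while its peak distances are given from 40161009.

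**Figure D1:**
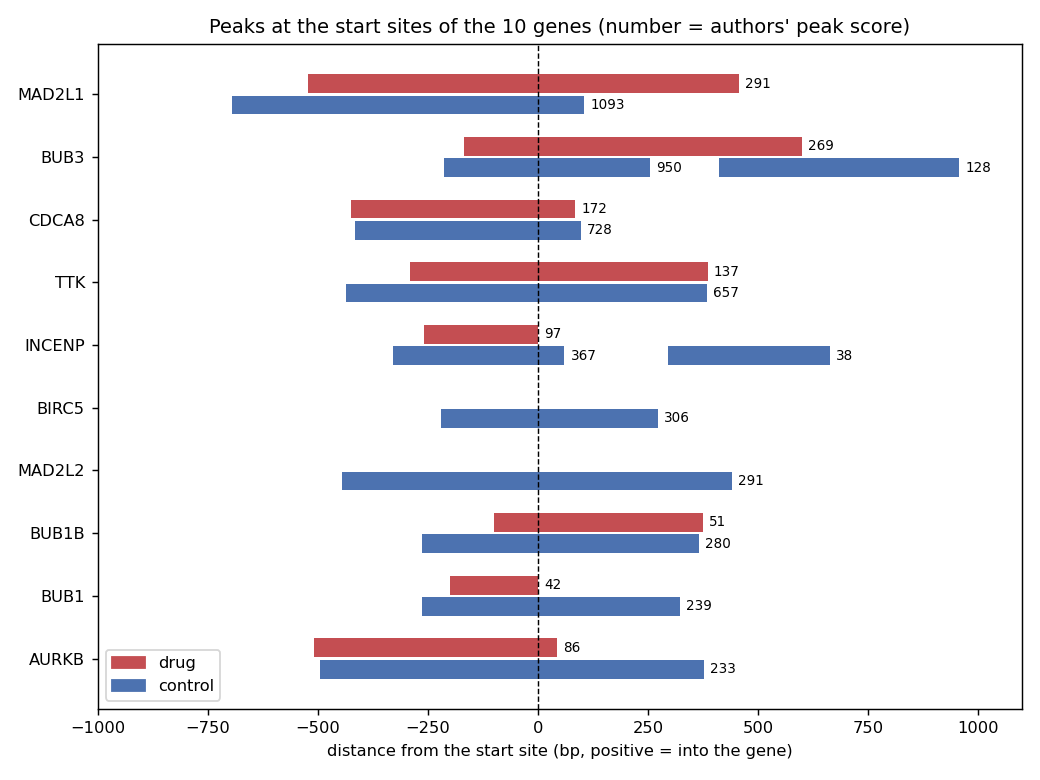
Peaks within 1 kb of the start site of each gene, drug above control, drawn to scale in bp along the gene's direction with the authors' score beside each bar. BIRC5 and MAD2L2 have a control bar and no drug bar, and the BUB3 drug bar reaches over 2 control bars.

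Promoter sequences were read from RefSeq (GRCh38.p14), which had entries for 7 members. BIRC5, BUB3 and TTK had no entry in that table. The CHR, the cell cycle genes homology region through which MuvB complexes bind, was searched as TTTGAA or TTCGAA on both strands in the 300 bases from 250 before to 50 after the start. It was found in 5 of the 7, INCENP, CDCA8, MAD2L1, BUB1 and BUB1B, always on the strand of the gene. It was present in 16.4% of all 35116 promoters listed there, and of the 11094 under a control promoter peak 9.99% held it. In all 5 it began within 50 bases of the start. At CDCA8 and at BUB1B it began at −23, at INCENP at −10, at BUB1 at position 2 and at MAD2L1 at position 25. With the search limited to that distance and to the gene's strand, a limit set after these positions were seen, 2.14% of promoters under a control peak and 2.87% of all promoters held it. AURKB, searched around 8210249 only, and MAD2L2 did not hold these letters in the window, which says nothing of the factor itself. Shown are the 3 promoters with the motif before the RefSeq start, and that of MAD2L2, which has no drug peak. Each is given as the 250 bases before the RefSeq start, 5′ to 3′ along the gene, with CHR and CCAAT letters of either strand in capitals. INCENP is chr11:62123761-62124010 (plus strand), CDCA8 chr1:37692266-37692515 (plus), BUB1B chr15:40160819-40161068 (plus) and MAD2L2 chr1:11681149-11681398 (minus).
INCENP: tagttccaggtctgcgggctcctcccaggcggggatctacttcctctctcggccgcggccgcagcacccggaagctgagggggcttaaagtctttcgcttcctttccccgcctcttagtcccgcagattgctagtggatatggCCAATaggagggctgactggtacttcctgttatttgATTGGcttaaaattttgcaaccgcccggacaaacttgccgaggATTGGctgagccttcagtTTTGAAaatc
CDCA8: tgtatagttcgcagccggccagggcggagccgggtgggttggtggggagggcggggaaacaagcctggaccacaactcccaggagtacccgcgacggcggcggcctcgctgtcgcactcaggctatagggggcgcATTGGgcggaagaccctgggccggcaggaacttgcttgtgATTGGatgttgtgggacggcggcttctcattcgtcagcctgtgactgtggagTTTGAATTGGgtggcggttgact
BUB1B: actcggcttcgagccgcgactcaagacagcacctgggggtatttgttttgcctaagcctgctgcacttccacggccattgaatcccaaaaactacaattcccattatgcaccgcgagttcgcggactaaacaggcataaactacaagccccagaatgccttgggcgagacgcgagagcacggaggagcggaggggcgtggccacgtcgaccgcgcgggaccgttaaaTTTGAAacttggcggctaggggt
MAD2L2: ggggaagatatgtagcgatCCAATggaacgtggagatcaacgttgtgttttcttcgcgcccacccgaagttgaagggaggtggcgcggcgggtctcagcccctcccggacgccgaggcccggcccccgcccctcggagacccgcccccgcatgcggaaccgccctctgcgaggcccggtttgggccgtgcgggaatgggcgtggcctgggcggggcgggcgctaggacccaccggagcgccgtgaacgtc

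The INCENP promoter shows 3 CCAAT letters before its CHR, and CDCA8 shows 2 before it and 1 that shares a base with it. CCAAT, the box bound by NF-Y, was found in 6 of the 7 promoters, in all but BUB1B, beside 38.2% of promoters under a control peak and 34.6% of all. GGCGG, the core taken for the CDE, was in all 7, beside 91.2% and 59.04%. It lies within the GC box GGGCGG, which was in 4 of 7, beside 75.1% and 45.0%. The E2F letters TTTCGCGC or TTTGGCGC were in 0 of 7, beside 2.28% and 1.15%, and TATAAA was in 0 of 7, beside 4.27% and 11.5%. All 5 promoters with the CHR letters were met by a drug peak. Of the 100 control promoter genes nearest to each in control score, 87% (BUB1) to 100% (CDCA8 and MAD2L1) were met. Of the 2 without the letters AURKB was met and MAD2L2 was not. BIRC5, also not met, could not be searched, and a link between the letters and a drug peak was not tested.

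**Figure D2:**
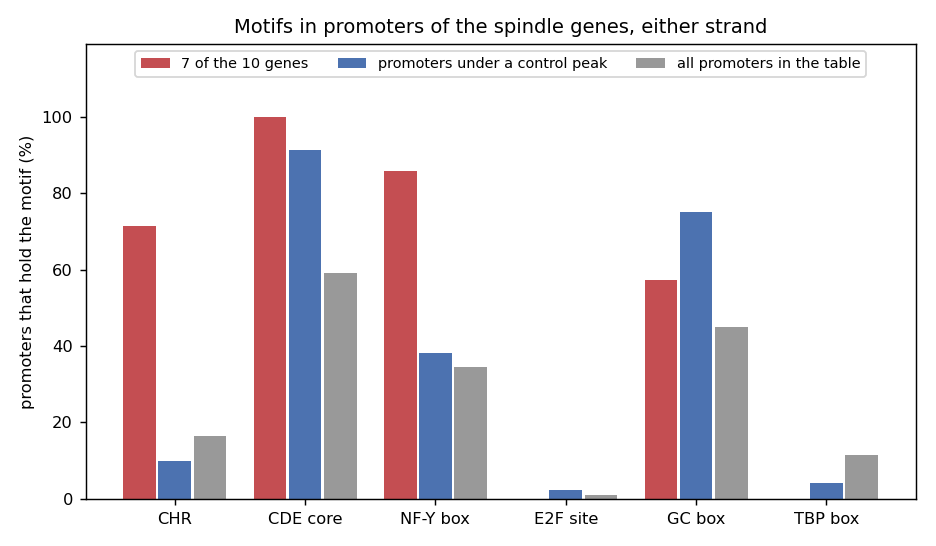
Percentage of promoters of 300 bases that hold each motif on either strand, for 7 of the 10 genes (red), promoters under a control promoter peak (blue) and all promoters in the table (grey), with the NF-Y box standing for CCAAT and the TBP box for TATAAA. CHR letters were in 5 of 7, beside 9.99% and 16.4%.

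The chromosomal passenger complex differed among its members. AURKB, the kinase, had a drug promoter peak of score 86 and a control promoter peak of score 233. The drug peak covered 509 bp before to 41 bp after the start site at 8210249 and the control peak 494 bp before to 376 bp after it, so the control peak reached farther in the direction of the gene. The authors' annotation tied the control peak to that start and the drug peak to the start at 8210575. INCENP, the scaffold that activates the kinase, had a drug peak of score 97 and 261 bp, against a control peak of score 367 and 390 bp. The drug peak lay wholly inside the control peak and ended at the first base of the gene.

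CDCA8, the borealin subunit, whose CHR begins at −23, had a drug peak of score 172 (chromosome 1, 37692091 to 37692599) and a control peak of score 728 (37692101 to 37692613) over its start site. Both were named C1orf109 by the authors, a gene that RefSeq lists as AIRIM and that starts on the opposite strand 274 bp away. The pair of peaks shared 499 bp, the closest match in limits among the start sites of the 10 genes, and a count by gene name misses both. Which of both genes the signal belongs to cannot be read from a shared peak.

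BIRC5, the survivin subunit, had no drug peak at its start and a control peak of score 306 (chromosome 17, 78214032 to 78214525, 494 bp). The nearest drug peak was 6967 bp away inside the gene. Of the 100 control promoter genes closest to BIRC5 in control score, with scores from 299 to 311, 93 were met by a drug peak (93.0%, exact 95% interval 86.1 to 97.1). The genes nearest in score were ANAPC7 (drug 95, control 306) and AZIN2 (drug 137, control 306), both with a drug peak.

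The checkpoint proteins fell into a stronger and a weaker group. MAD2L1, the HORMA domain protein that changes shape to bind CDC20, had the highest promoter scores of the 10 genes, 291 in drug cells and 1093 in control cells. Its drug peak (chromosome 4, 120066392 to 120067370) was 979 bp wide and its control peak (120066744 to 120067544) was 801 bp wide. BUB3, the WD40 repeat protein that carries BUB1 and BUB1B to kinetochores, followed with 269 in drug cells and 950 in control cells. TTK, the kinase that starts the signal, had 137 in drug cells and 657 in control cells.

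BUB1, a kinase of the outer kinetochore, had a drug peak of score 42 with the smallest width in the list, 200 bp, against a control peak of score 239 and 585 bp. The drug peak ended at the first base of the gene, while the control peak reached 321 bp into it. BUB1B, the BUBR1 protein of the inhibitory complex, had a drug peak of score 51 and 475 bp, against a control peak of score 280 and 628 bp. Its CHR, also at −23 from the RefSeq start, lies after the start from which its peaks are measured. The authors placed the drug peak in the 5' UTR and the control peak in the promoter class, although the 2 shared 465 bp. By gene name and promoter class BUB1B therefore counts as control-only, and so 6 of 9 members were shared by name, beside 72.1% of all control promoter genes.

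MAD2L2, also a HORMA domain protein and best known from translesion synthesis and the shieldin complex, and without CHR letters in its window, had no drug peak at its start and a control peak of score 291 (chromosome 1, 11680709 to 11681593, 885 bp). The nearest drug peak was 7559 bp away. Of the 100 promoter genes closest to it in control score, from 286 to 296, 92 were met by a drug peak (92.0%, 84.8 to 96.5). The nearest in score were C3 (drug 47, control 291) and EZR (drug 79, control 291), both with a drug peak. RefSeq lists a second, upstream MAD2L2 start on chromosome 1, and no peak of either library lay there.

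BIRC5 and MAD2L2 were not the weakest members in control cells. AURKB, BUB1 and BUB1B had lower control scores (233, 239 and 280) and had a drug peak. Among all 2030 control promoter genes with no drug peak at the same place the median control score was 80, and 31 scored above BIRC5 and 44 above MAD2L2. Of the 4501 control promoter genes within the members' own range of control scores, 233 to 1093, 97.5% (97.0 to 97.9) were met by a drug peak, beside 8 of the 10 members. That share is not matched to where the members lie in the range. Among the 100 genes nearest to each member it ran from 85% at AURKB to 100% at CDCA8, MAD2L1, BUB3 and TTK. In the fifth of 10 equal bins of control score, which holds BIRC5, MAD2L2 and BUB1B, 849 of 911 genes were met.

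**Figure D3:**
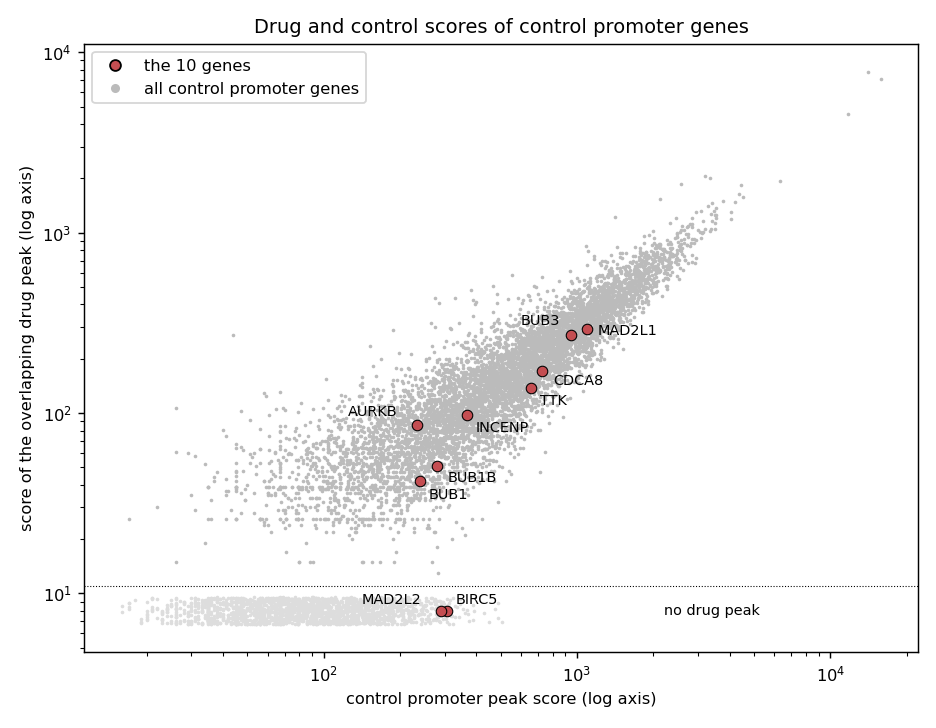
Score of the overlapping drug peak against control promoter score, both on log axes, for 9106 control promoter genes (grey) and the 10 genes (red), with genes that had no drug peak in the strip at the bottom. BIRC5 (306) and MAD2L2 (291) lie in that strip, to the right of most of its genes.

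As a set the members were ordinary in control strength. Their median control score at the start site was 336.5, against 361 over all control promoter genes, and 5 of 10 stood above that median. The lowest, AURKB, stood above 36.7% of control promoter genes and the highest, MAD2L1, above 86.0%. The 8 drug peaks had a median score of 117, against 150 over all control promoter genes met by a drug peak. The order of the 5 strongest members, MAD2L1, BUB3, CDCA8, TTK and INCENP, was the same in both libraries. Below them AURKB stood above BUB1B and BUB1 in drug cells and below both in control cells.

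Each member's drug score was then placed among the 50 control promoter genes next above and the 50 next below it in control score. With an absent drug peak counted as lowest, for members and neighbours alike, 9 of 10 members lay below the median of those genes, beside 49.8% (48.4 to 51.3) of the 4501 promoter genes in the same range of control score. The medians that follow are over the neighbours with a drug peak, and 7 of the 8 members with a drug peak lay below them. TTK had 137 against a median of 204 (quartiles 152 and 242.25), and 84 of its 100 neighbours scored higher. CDCA8 had 172 against a median of 228, with 80 of 100 higher. BUB1 had 42 against 69, with 74 of 87 higher, and BUB1B 51 against 82, with 74 of 88 higher.

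The other members lay nearer the middle. BUB3 had a drug score of 269 against a median of 291.5 among its neighbours, MAD2L1 had 291 against 309 and INCENP had 97 against 101. AURKB was the exception, with 86 against a median of 68, and 28 of its 85 neighbours with a drug peak scored higher. These places describe single peaks in 1 drug library and have no replicate error. The members were listed with earlier results of these data known, and no test was made of the set.

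**Figure D4:**
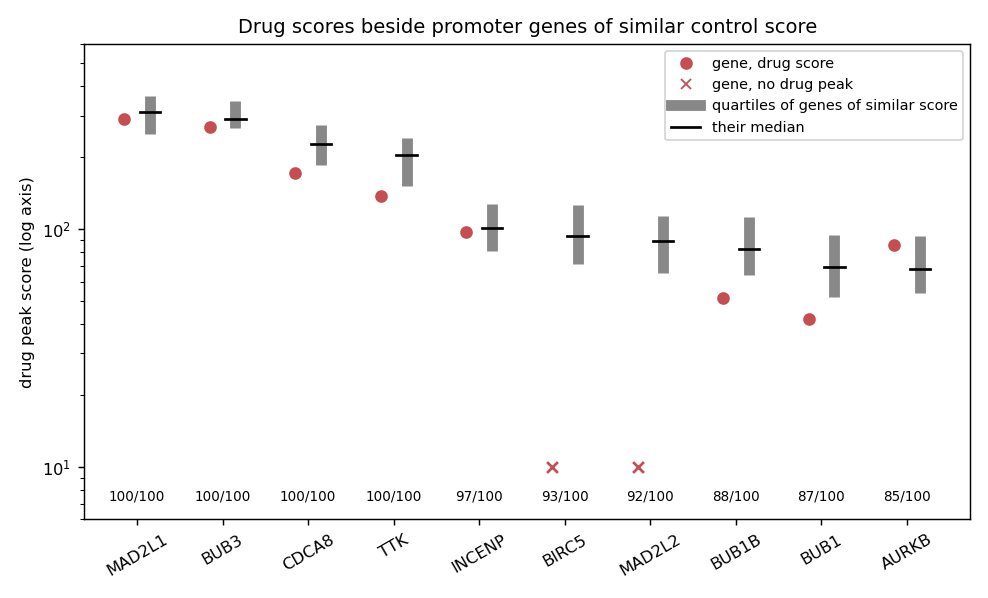
Drug score (log axis) of each gene in red beside the quartiles (grey bar) and median (line) of the drug scores of the 100 promoter genes closest in control score, counting those with a drug peak, whose number of 100 stands below. BIRC5 and MAD2L2 are marked by crosses for the absence of a drug peak, and AURKB alone lies above its median.

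Peak shape also differed. At 6 of the 8 shared start sites the drug peak was the narrower of the pair, and at MAD2L1 and BUB3 it was the wider. Over all overlapped control promoter peaks 6.18% had a wider drug peak. At BUB3 the drug peak was 769 bp wide (chromosome 10, 123154075 to 123154843) and the control peak at the start was 469 bp wide (123154030 to 123154498). The drug peak also reached a second control peak of score 128 in exon 2, at 123154656 to 123155199. Together these 2 control peaks reached beyond the drug peak on both sides. The count of BUB3 as wider in drug cells therefore rests on the split of the control signal. At MAD2L1 the drug peak reached 456 bp into the gene and the control peak 104 bp. At INCENP and BUB1 the drug peak lay before the gene, from −260 and −199 bp, and ended at its first base.

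Outside promoters the control library had more peaks, 39991 against 20902 in the drug library over the whole lists. The drug list held 6 such peaks named for members and 4 of them met a control peak, beside 60.0% of all drug peaks outside promoters. Among the 4 was the BUB1B 5' UTR peak, which met the control promoter peak. The control list held 16, and 4 of them met a drug peak, beside 31.6% of all control peaks outside promoters. Among these 4 was the BUB3 exon 2 peak, met by the drug promoter peak of BUB3. INCENP had the most, with 1 in drug cells (score 32) and 7 in control cells (scores 28 to 66). They lay along the gene from intron 1 to intron 18, and the INCENP pair that coincided was in intron 10 of 17, at 62141031 to 62141329 in drug cells with a score of 32 and at 62140941 to 62141329 in control cells with a score of 31.

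The strongest peak of any member was in neither promoter nor exon. BIRC5 had a peak in intron 3 of 3 with the same limits in both libraries, chromosome 17 from 78221492 to 78221740, scoring 19376 in drug cells and 33163 in control cells. It ranked 21 of 29283 in the drug list and 25 of 49854 in the control list. The authors' annotation puts it in FLAM_C, a repeat of the Alu family, whose copies resemble each other, so reads there may come from elsewhere and the position is uncertain. BIRC5 thus had a drug peak by name while its start site had none.

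Further control peaks without a drug partner were named for AURKB (score 91 at its 3' end and 72 beyond it), MAD2L1 (132 in the 3' UTR and 91 beyond the gene), BUB3 (128 at the termination site) and BIRC5 (76, in an intron of the neighbouring AFMID). MAD2L2 had a peak in an intron of the neighbouring FBXO6 in both libraries, with 22 in drug cells and 41 in control cells. Drug peaks without a control partner were a peak of score 24 in an AluY repeat in intron 4 of CDCA8 and a peak of score 13 upstream of BUB1B, centred at −23114 bp from its start, each 200 bp wide. TTK and BUB1 had no named peak outside their promoters in either library.

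**Figure D5:**
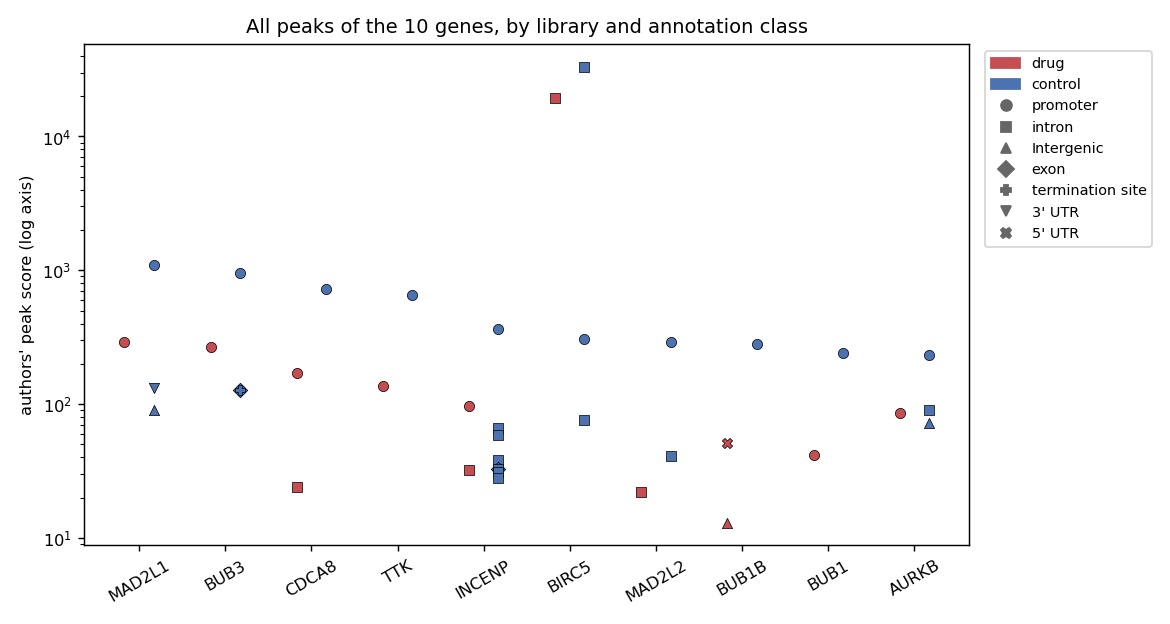
Authors' scores (log axis) of all peaks named for the 10 genes, plus the 2 C1orf109 peaks over the CDCA8 start, drug left of control for each gene, with a marker for each annotation class. The BIRC5 intron peak stands far above all others in both libraries, and INCENP has the most control peaks.

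The wider pathway was read from 4 lists of 73 genes, which contain none of the 10. Of 15 other spindle checkpoint genes with a control promoter peak, 14 were met by a drug peak. The strongest were MAD2L1BP, which helps to take MAD2L1 off CDC20 (drug 522, control 1603), and CCNB1, the mitotic cyclin (drug 335, control 993). TRIP13, the ATPase that works with MAD2L1BP, was not met at a control score of 97. Of 14 partners and substrates of the passenger complex, 12 were met, led by ECT2, a RhoA activator in cytokinesis (drug 654, control 2249), and PPP2R5A, a PP2A subunit (drug 646, control 2049). PPP1CA, a phosphatase that opposes Aurora B (control 166), and HASPIN, the kinase whose histone mark recruits the complex (control 145), were not met.

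All 13 anaphase-promoting complex genes with a control promoter peak were met by a drug peak. FBXO5, the inhibitor EMI1 (drug 852, control 2058), and ANAPC5 (drug 523, control 1595) were strongest. All 11 cohesin and separase genes were met too, led by the ring subunits SMC3 (drug 392, control 1599) and SMC1A (drug 292, control 1219). In all 50 of 53 were met (94.3%), at a median control score of 617. Over all control promoter genes the share was 77.7%, and in the seventh of 10 bins of control score, from 485 to 655, it was 99.7%. The 53 genes ran from 95 (ESPL1) to 2249 (ECT2) in control score, so neither share is matched to them. The 3 that were not met scored at most 166, well under BIRC5 and MAD2L2. In the bin of TRIP13, from 67 to 116, 33.0% of genes were met. In the bin of HASPIN and PPP1CA, from 116 to 180, it was 59.4%. Of these 53 genes 29 lay below the drug median of promoter genes of similar control score. No gene of the 4 lists had a drug promoter peak without a control peak at the same place, and 12 had no promoter peak in either library.

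Liver markers were only in part marked at their promoters, in 6 of 14 in drug cells and 10 of 14 in control cells. KRT8, KRT18, HNF4A and CPS1 were among the marked, and ALB, AFP, APOA1 and TTR had no promoter peak in either library. Of 16 markers of blood, stromal and neuronal cells, 3 had a promoter peak in drug cells and 5 in control cells. COL1A2 had one in drug cells alone, and PDGFRA, SYN1 and TUBB3 had one in control cells alone. No share over all genes was set beside these counts. The part of these markers in the results on the spindle genes was not tested.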

How the data were processed

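The study profiled PLC8024 cells by CUT&Tag in 1 drug and 1 control library, grouped by the treatment label. Per the file headers, each deposited table is a MACS2 narrow peak list of 1 library, annotated with HOMER against hg38. The authors' score per peak was the only measurement. The narrow peak names in the headers point to duplicate removal. Its settings, the aligner, software versions and any control track in peak calling are not given in the sources used here, and depth is unknown, so scores, widths and peak numbers may all move with it. A line of the control list was emptied beforehand and is not analysed here. Overlap meant at least 1 bp. Intervals are exact Clopper-Pearson and cover counting error only. Motifs and opposite-strand starts came from RefSeq (GRCh38.p14), the same assembly as hg38. Pathway genes were matched by gene ID. The overlap code was tested on simulated peaks in Python 3.11.15 with pandas 2.3.3 and SciPy 1.17.1. No test between groups was possible. The members and lists were chosen with earlier results of these data known. All 10 members are named. From each pathway list the 2 strongest shared genes and every unshared control promoter gene are named, along with the 2 genes nearest in control score to each member without a drug peak.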

Additional observations from a re-analysis of the deposited data

How the results depend on the processing

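No paired analysis was possible because each group had 1 library. BIRC5 and MAD2L2 had no drug peak at their start sites under any of the 9 alternatives for score, list length, merging, overlap, promoter definition or gene link. This outcome was largely fixed beforehand, so it adds no weight to the absence. The stricter settings could only remove peaks, and the looser ones reached 500 bp or 1 kb. The nearest drug peaks were 6967 bp (BIRC5) and 7559 bp (MAD2L2) away. With a score of at least 50 in both lists BUB1 also lost its drug peak, and named drug peaks of the members numbered 7 instead of 12. By gene name CDCA8 and BUB1B lost theirs, as the same places carry another name or class. The share of all control promoter genes met by a drug peak was 73.6% with a score of at least 50, 84.6% with the control list cut to the length of the drug list, 79.7% with peaks within 500 bp merged, 79.6% with a drug peak allowed within 500 bp and 72.1% by gene name. On the gene's strand alone CCAAT was in 3 promoters of members instead of 6. With 25 genes on each side, or with bins of control score, 9 of 10 members again lay below the drug median of genes of similar control score. A promoter without a drug peak may hold signal too weak for the score minimum at an unknown depth.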

Other observations

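An opposite-strand start site lay within 1 kb upstream in 4 of the 7 promoters with an entry, beside 39.03% of promoters under a control promoter peak and 17.9% of all promoters. The neighbours were MAD2L1-DT at 110 bp from MAD2L1, LOC105373554 at 149 bp from BUB1, AIRIM at 274 bp from CDCA8 and LOC124902681 at 300 bp from INCENP. At MAD2L1, BUB1 and CDCA8 the peaks of both libraries covered the neighbour's start, and at INCENP the control peak alone did. Which gene the signal belongs to cannot be read from such shared peaks. The 7 promoters had a median GC content of 62.7%, against 66.7% under control promoter peaks and 58.7% over all promoters. MAD2L2 had the highest, 72.3%, with 41 CpG pairs in 300 bases, and INCENP the lowest, 57.0%, with 20.

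Inside the BUB1B gene both libraries had a peak at the start of the readthrough gene BUB1B-PAK6, with a score of 37 in drug cells and 41 in control cells. A further control peak of score 29 in the BUB1B gene carried the BUB1B-PAK6 name, and a control peak of score 32 in intron 22 of BUB1 carried the name SNORD132. Neither had a drug partner.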
